A study of Arabidopsis thaliana with 30 samples.

Results

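Open chromatin at the auxin response genes of Arabidopsis thaliana was read from ATAC-seq peak lists of 30 libraries. The genes are the 29 Aux/IAA genes and the 5 activating auxin response factors ARF5, ARF6, ARF7, ARF8 and ARF19, so 34 of 27444 protein-coding genes. A peak was counted at a gene when it overlapped the gene or the 1000 bp on either side of it. This gave 1582 of the 734458 peaks in all lists. The libraries come as 2 per group: Col-0 root, Col-0 stem, and shoots of ros1-4, rdd-2, drdd, met1-9, nrpd1-3 ros1-4, nrpd1-3, gcn5 ros1-4, gcn5, hda6 ros1-4, hda6, sdg2-4 ros1-4, sdg2-4 and Col-0. Plants were 2 weeks old for shoot and root and 4 weeks old for stem, all grown at 22 °C with a 16 h light period and with no treatment named in the labels. ROS1 is a DNA glycosylase that removes methylcytosine. The rdd-2 genotype lacks it with its relatives DML2 and DML3, drdd in addition carries a lesion in DME, and met1-9 affects the enzyme that maintains CG methylation. NRPD1 is the largest subunit of RNA polymerase IV, GCN5 a histone acetyltransferase, HDA6 a histone deacetylase and SDG2 a histone H3 lysine methyltransferase.

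Auxin is perceived by the F-box proteins TIR1 and AFB1 to AFB5 together with an Aux/IAA protein. Aux/IAA proteins bind ARF transcription factors and recruit TOPLESS corepressors, so that ARF target genes are off. When auxin joins the receptor to the degron of an Aux/IAA protein, the repressor is degraded and the ARF activates its targets, among which are many Aux/IAA genes themselves. In roots the pathway is known for meristem maintenance and lateral root formation, in stems for vascular development, and in shoots for organ initiation and elongation.

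To compare libraries, overlapping summits were gathered into elements of 301 bp, numbered here along each gene in coordinate order. An element was carried by a library when a peak of that library overlapped it. Each peak has a fold, the authors' own ratio of fragments piled up at its summit over background. It is a peak's own value within its list and does not measure a change between libraries. A wide peak gives every element it overlaps the fold of its 1 summit, which can lie in a neighbouring element. An element is called gained when both libraries of the first group and neither library of the second carried it, and lost when both of the second and neither of the first did. For 2 libraries against 2 the smallest p an exact test can reach is 0.333, so no element was tested. Nothing in the labels says that replicates came from separate plants or cultures. The lists hold no read counts. The background level that the folds and p-values imply was lowest, at 5.17 fragments, in ros1-4 replicate 2 and highest, at 32.5, in gcn5 replicate 2, and the lowest fold called at that level ran from 1.61 in gcn5 replicate 2 to 2.43 in ros1-4 replicate 2. Weak peaks can therefore enter the gcn5 lists and stay out of those with a low background level. Of 7 shoot marker genes, 3 and 2 had a peak in the root libraries, 6 and 6 in stem, and 7 and 7 in every shoot group. Of 6 root markers, 6 and 6 had a peak in root, 3 and 3 in stem, and from 2 to 4 in the shoot libraries. Of 6 stem markers, 4 and 4 had a peak in root, 5 and 6 in stem, and 4 or 5 in the shoot libraries, so stem and shoot overlap. Both met1-9 lists name their peaks as leaf, against the label shoot, and both stem lists name theirs as merged or added data. A batch is not given in the labels and cannot be told apart from organ or genotype. In whole organs, fewer cells with an open site and less opening per cell cannot be told apart either. Peaks at the mutated genes themselves do not check the genotypes, since ROS1, for one, had a peak in all 30 libraries.

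Most of the family was open in every group. Of the 34 genes, 33 had a peak in at least 1 library and 21 had one in all 30. Counted through elements, 61.8% of the members and 51.1% of all protein-coding genes had a peak in every library. The family held 85 elements, 2.5 per gene against 1.92 per protein-coding gene, of which 21 lay in the gene and 64 in its flanks. Of the 85, 31 (36.5%) were carried by all 30 libraries, against 30.2% of all 42611 elements. The plot of folds over the whole family shows these constant elements as unbroken bands and the library-dependent ones as short dark runs.

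**Figure D1:**
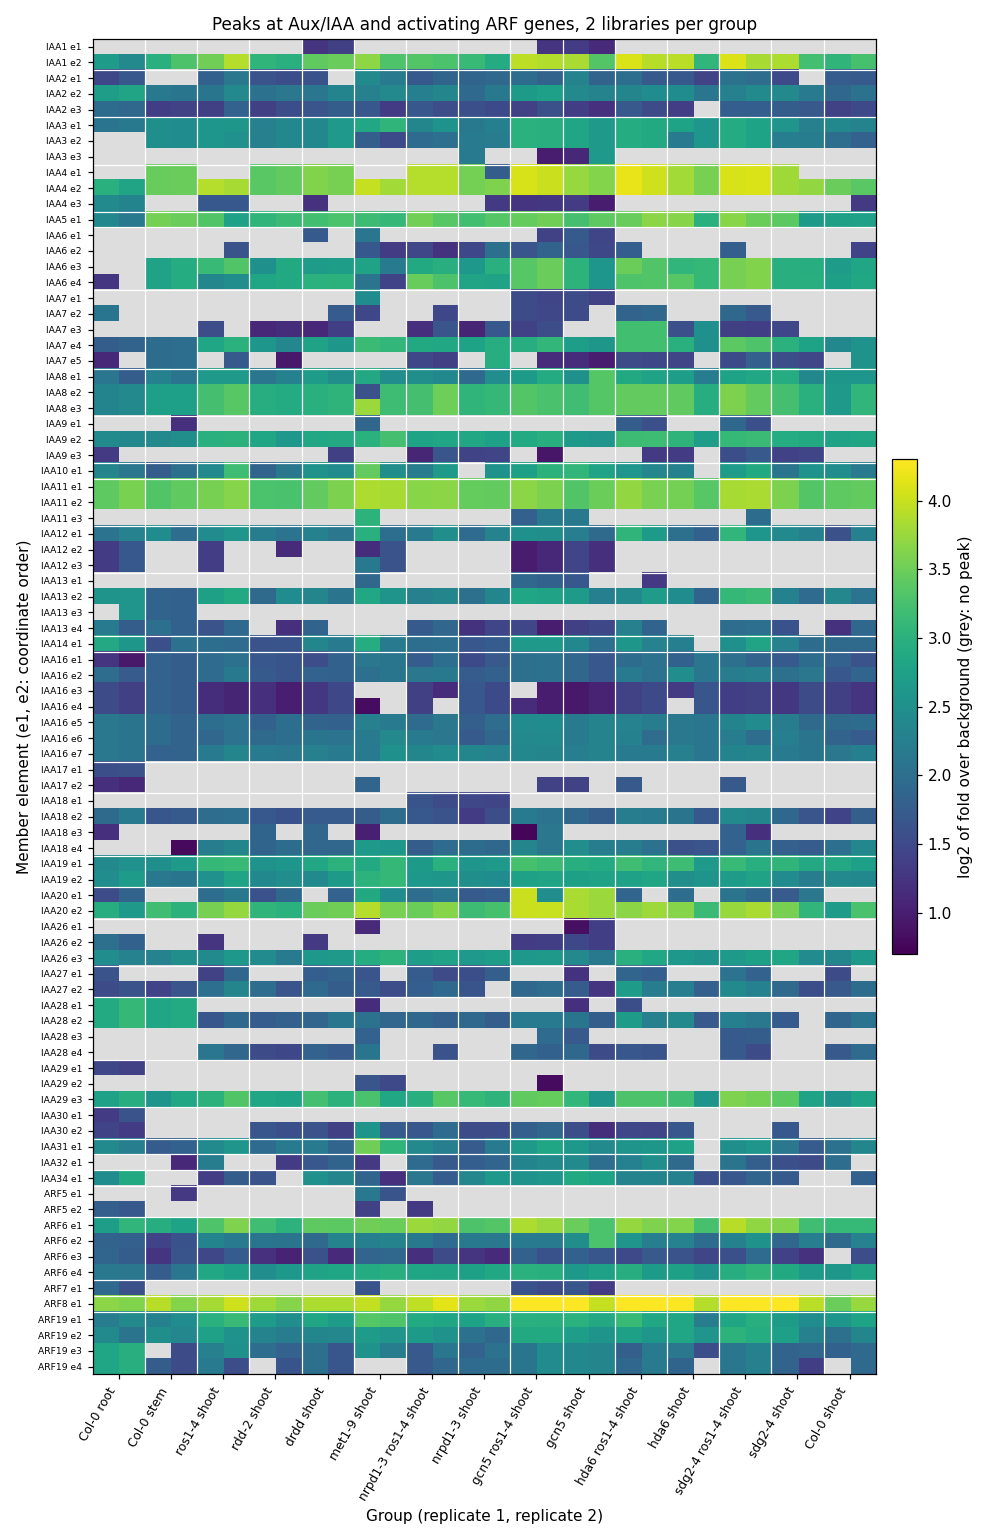
Fold over background (log2 colour scale) of the peak covering each of the 85 elements, one line per element (e1, e2 in coordinate order along the gene), in 30 libraries, 2 columns per group, grey where no peak was listed. The 31 elements with a colour in every column include ARF8 e1, the brightest line with a median fold of 15.1, while IAA17, ARF5 and ARF7 are mostly grey.

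The activating ARFs fell into an open and a sparse set. ARF8 (AT5G37020), which with ARF6 promotes flower maturation, had the highest fold of the family at its single element (TAIR10 chromosome 5, 14629238 to 14629538). Over the 30 libraries this fold was 11.2 at the lowest, 15.1 at the median and 27.1 at the highest, and every library carried it. ARF6 had 4 elements, 3 of them in all libraries, with a median fold of 10.6 at element 1 (chromosome 1, 10684940 to 10685240). ARF19, which acts with ARF7 in lateral root formation, also had 4 elements, 2 of them in all libraries. Its elements 3 and 4 lay in 1 peak of 888 and 988 bp in root, with its summit at element 4 and folds of 7.08 and 7.81. In stem the peaks over element 4 had folds of 3.399 and 2.91, and Col-0 shoot had a summit in element 3 in replicate 1 alone, at a fold of 3.52. Stem replicate 2 and Col-0 shoot replicate 2 also covered both elements with 1 peak, of 735 and 645 bp, with its summit in neither element. The joined form was thus not confined to root, and gcn5 had it too, at 748 and 885 bp, as did drdd, at 739 and 760 bp. ARF7, by contrast, had a peak in only 8 of 30 libraries, and ARF5, the MONOPTEROS factor of embryo axis and vascular patterning, in 7. Among the 5 activating ARFs, 3 had a peak in all libraries, and their 12 elements were carried by a median of 29.5 libraries.

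Of the 23 Aux/IAA genes whose proteins carry the full degron, 17 had a peak in all 30 libraries. The strongest of these was IAA4, an early auxin-induced repressor gene, whose element 2 (chromosome 5, 17549989 to 17550289) had a lowest fold of 7.0, a median of 13.3 and a highest of 18.1. IAA11 followed with a single peak over its elements 1 and 2 in all 30 libraries, at a median fold of 11.8, although ABCB23 is the closer gene there. At IAA1, the AXR5 gene, element 2 (chromosome 4, 8360719 to 8361019) had a median fold of 10.1. IAA16 had the most elements, 7, and 5 of them were in all libraries, but at median folds between 3.56 and 4.67. At the low end of the constant elements stood IAA18 element 2 with a median fold of 3.43, IAA16 element 1 with 3.56 and IAA16 element 2 with 4.02. IAA5, IAA8, IAA9 and IAA19, a regulator of hypocotyl tropism, each had constant elements with median folds of 9.87, 9.11, 7.21 and 7.47 at the highest one. Over the 31 constant elements the median of these medians was 6.80, against 6.99 over all constant elements of the genome.

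The sparsest genes with the full degron were IAA15 and IAA17. IAA15 had 1 peak, with a fold of 2.0, in met1-9 replicate 1 and no element. IAA17, the AXR3 gene known for its root phenotypes, had a peak in 9 libraries. The remaining ones that missed a library were IAA6, IAA14 and IAA28, with a peak in 29, and IAA10, with a peak in 28. The other 6 Aux/IAA genes, IAA20, IAA30, IAA31, IAA32, IAA33 and IAA34, encode proteins that lack the degron or keep part of it. Only IAA20 of these had a peak in all libraries, and its constant element lies closer to ABCB4, an auxin transporter gene. IAA31 had a peak in 29 libraries, IAA34 in 25, IAA32 in 22, IAA30 in 20 and IAA33 in none.

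Root was set against shoot to ask where the family differs between organs. In root 12 of the 85 elements were gained, or 14.1%, where 13.2% of all elements were gained, and 4 were lost, or 4.71%, where 5.41% of all were lost. Both shares are near those of the genome, so the counts say nothing particular to the family, and the values of single genes follow. The gained elements lay at IAA12, IAA17, IAA20, IAA26, IAA28, IAA29, IAA30, ARF5 and ARF7, with 2 elements each at IAA12, IAA17 and IAA30. The lost ones lay at IAA3, IAA6, IAA18 and IAA28.

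**Figure D2:**
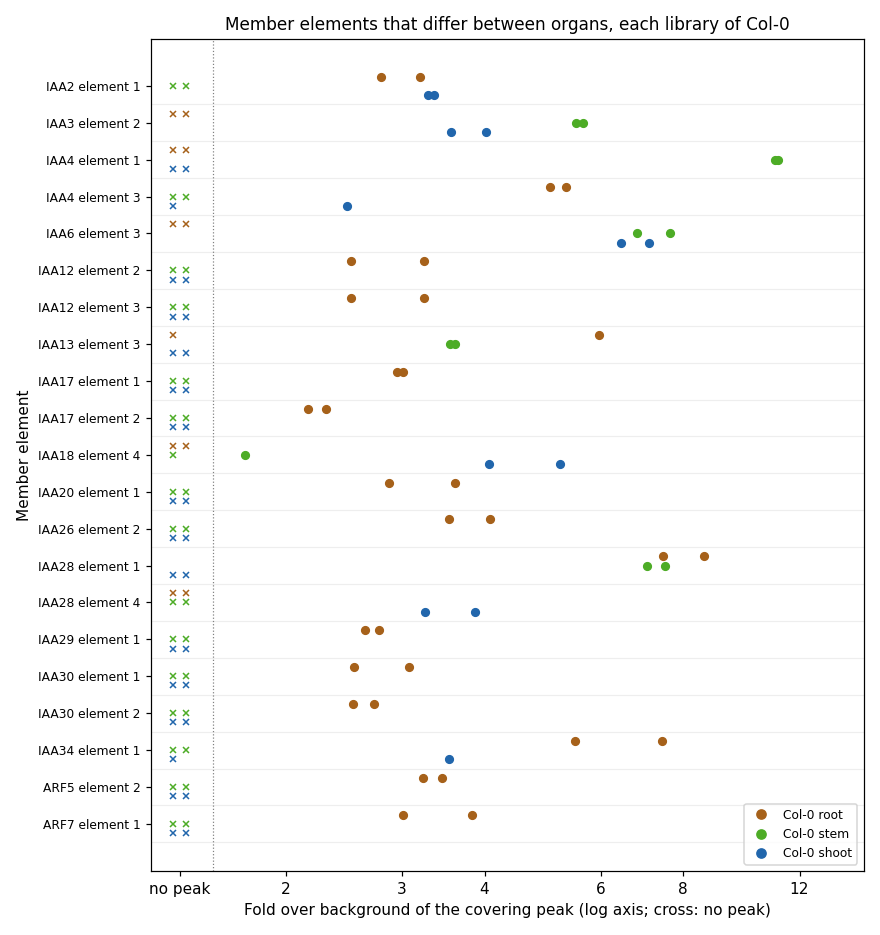
Fold over background (log axis) of the peak at each of the 21 elements that differ in an organ comparison, for each library of Col-0 root, stem and shoot; crosses mark libraries with no peak. The root-only elements lie between folds of 2.16 and 4.08, while IAA28 element 1 is drawn at 7.06 to 8.58 in root and stem, the folds of a wide peak with its summit outside that element, and IAA6 element 3 at 6.43 to 7.63 in stem and shoot.

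IAA28 (AT5G25890), whose stabilised form suppresses lateral roots, had a wider peak in root and stem than in shoot. The root and stem libraries covered elements 1 and 2 with 1 wide peak, 1169 and 1205 bp long in root and 1209 and 1241 bp long in stem. Its folds were 7.45 and 8.58 in root and 7.06 and 7.50 in stem, and in none of the 4 libraries did its summit lie in element 1 (chromosome 5, 9032354 to 9032654). In Col-0 shoot the peak at element 2 was 368 and 370 bp long, with folds of 3.66 and 4.22, and ended before element 1. The gain of element 1 is thus one of peak width, and with only summits near the element counted it was called in neither root nor stem. None of the other shoot groups had the wide peak, and 3 single libraries of gcn5, hda6 ros1-4 and met1-9 had a separate small peak there, with folds of 2.26, 2.96 and 2.25. At the other end of the gene, element 4 (chromosome 5, 9035819 to 9036119) was listed in no root and no stem library and had folds of 3.25 and 3.87 in Col-0 shoot. GA3, a gibberellin synthesis gene, is the closer gene at element 4.

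IAA6 (AT1G52830) and IAA3 (AT1G04240), also named SHY1 and SHY2 for short hypocotyl mutants, had a site that was open in stem and shoot and not listed in root. At IAA6 element 3 (chromosome 1, 19673627 to 19673927) no root library had a peak, both stem libraries did, with folds of 6.82 and 7.63, and both Col-0 shoot libraries did, with 6.43 and 7.10. IAA6 as a whole had 1 peak in root, at element 4 of replicate 1, with a fold of 2.42. Over all 30 libraries element 3 was missing only from the root pair. IAA3 element 2 (chromosome 1, 1130108 to 1130408) was likewise missing only from the root libraries, with a peak of its own in Col-0 shoot, at folds of 4.01 and 3.56. In stem it lay inside a joined peak of 975 and 1051 bp, whose folds of 5.64 and 5.49 are those of the summit at element 1. IAA18 (AT1G51950), which restrains lateral root initiation and acts in embryo patterning, had no peak at element 4 (chromosome 1, 19307858 to 19308158) in root. Stem had a peak there in replicate 2, with a fold of 1.73, and Col-0 shoot had folds of 4.06 and 5.21.

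The remaining root gains were weaker. ARF5 (AT1G19850) had root folds of 3.44 and 3.23 at element 2 (chromosome 1, 6886139 to 6886439), where stem and Col-0 shoot listed none. The pileups behind those folds were 66 and 54 fragments. IAA12 (AT1G04550), the BODENLOS partner of ARF5 in embryonic root formation, had 1 root peak across elements 2 and 3 (chromosome 1, 1242147 to 1242753), with folds of 2.51 and 3.24. Neither stem nor Col-0 shoot had a peak at these 2 elements, while element 1 of IAA12 was open in all libraries. At element 3 AT1G04555 is the closer gene. ARF7 (AT5G20730) had root folds of 3.83 and 3.00 at its only element (chromosome 5, 7022049 to 7022349), and stem and Col-0 shoot had none.

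IAA26 (AT3G16500), which encodes a phytochrome-associated protein, had root folds of 4.08 and 3.53 at element 2 (chromosome 3, 5614801 to 5615101). Neither stem nor Col-0 shoot carried this element. At IAA17 (AT1G04250), root folds were 2.95 and 3.01 at element 1 (chromosome 1, 1135515 to 1135815) and 2.30 and 2.16 at element 2. Col-0 stem replicate 2 also had a peak at this gene, with a fold of 4.07, that reached neither element. IAA17 element 1, IAA29 element 1 and IAA30 element 1 were listed in both root libraries and in no other library of the series. IAA29 (AT4G32280), with folds of 2.77 and 2.64, is a shade-induced repressor gene, and IAA20 and IAA30 are known targets of ARF5 in the vascular tissue. IAA30 (AT3G62100) had root folds of 2.53 and 3.07 at element 1 and of 2.72 and 2.53 at element 2, and no peak in stem or Col-0 shoot. IAA20 (AT2G46990) had root folds of 2.86 and 3.61 at element 1 (chromosome 2, 19309300 to 19309600), which was also absent from stem and Col-0 shoot.

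A gene can also be open in every organ with a broader peak in one. IAA14 (AT4G14550), the SOLITARY-ROOT gene of lateral root initiation, had 1 element, inside the gene. Its folds were 7.35 and 6.07 in root, 3.00 and 4.10 in stem, and 3.85 and 3.84 in Col-0 shoot. The peak was 1142 and 1113 bp long in root, 228 and 442 bp in stem, and 171 and 218 bp in Col-0 shoot, so the root peaks were the longest of the 6. The order differed at IAA5 (AT1G15580), an early auxin-induced gene, with folds of 5.23 and 4.46 in root, 11.7 and 11.1 in stem, and 6.71 and 6.75 in Col-0 shoot. IAA14 and IAA5 were chosen after their values were seen.

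The lowest folds called at background in Col-0 shoot were 2.37 and 2.11, so most of these root peaks stand little above what the shoot lists could show. With all lists of equal length 7 elements were gained, or 8.24% (8.47% of all). Of the gains given above, only those of ARF5, IAA26, IAA28 and IAA17 element 1 held at that length. Those of IAA12, IAA20, IAA29, IAA30, ARF7 and IAA17 element 2 did not, and the rest of the 7 were new calls. Where the mean fold had to reach 2 times the detection limit of the other group, the only gain was IAA28 element 1, on the fold of a summit outside it, and the losses were IAA6 element 3 and IAA18 element 4.

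The stem libraries were compared with those of Col-0 shoot next, where plants also differed in age, a difference that cannot be told apart from organ. Stem gained 3 elements, or 3.53%, where 4.64% of all elements were gained, and lost 2, or 2.35%, where 6.1% were lost. The gains were IAA28 element 1, IAA4 element 1 and IAA13 element 3. IAA13, a close relative of IAA12, had stem folds of 3.61 and 3.54 there and no peak in Col-0 shoot, within peaks that also covered its constant element 2. IAA4 (AT5G43700) element 1 (chromosome 5, 17549480 to 17549780) was absent from root, carried by stem with folds of 11 and 11.1, and absent from Col-0 shoot. The fold is that of the strong neighbouring element 2, since 1 peak of 911 and 973 bp covered both in stem, against peaks of 599 and 608 bp at element 2 in Col-0 shoot. The losses were IAA28 element 4 and IAA2 (AT3G23030) element 1 (chromosome 3, 8179897 to 8180197). The IAA2 folds were 2.79 and 3.19 in root and 3.35 and 3.29 in Col-0 shoot, and stem listed none. AT3G23020 is the closer gene to that element. With only summits close to the element counted, 8 elements were lost in stem and 1 gained. Without Col-0 stem replicate 1 there were 5 gains and without Col-0 shoot replicate 2 there were 6, while without Col-0 stem replicate 2 there were 4 losses and without Col-0 shoot replicate 1 there were 5.

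Root was then set against stem. Here 14 elements were gained in root, or 16.5%, where 13.2% of all elements were gained, and 3 were lost, or 3.53%, where 3.92% were lost. These comparisons share their libraries, and 11 of the gains are the root-only elements of IAA12, IAA17, IAA20, IAA26, IAA29, IAA30, ARF5 and ARF7 already given. The others were at IAA2, IAA4 and IAA34, of which IAA2 element 1 is described with the stem losses. IAA34 (AT1G15050), which with IAA32 is stabilised rather than degraded at high auxin, had root folds of 5.47 and 7.43 at its only element (chromosome 1, 5181478 to 5181778), where stem had none. GAT1_2.1 is the closer gene. Col-0 shoot had no peak there in replicate 1 and a fold of 3.53 in replicate 2. IAA4 element 3, past the other end of that gene (chromosome 5, 17551727 to 17552027), had root folds of 5.32 and 5.02. Stem listed none and Col-0 shoot listed a fold of 2.47 in replicate 2 alone. The losses were IAA3 element 2, IAA6 element 3 and IAA4 element 1, and with only summits near the element counted those of IAA3 and IAA4 were not called. With lists of equal length there were 5 gains, or 5.88% (6.46% of all), and 6 losses, or 7.06% (7.53% of all). Without Col-0 root replicate 1 there were 5 losses and without Col-0 stem replicate 1 there were 7.

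**Figure D3:**
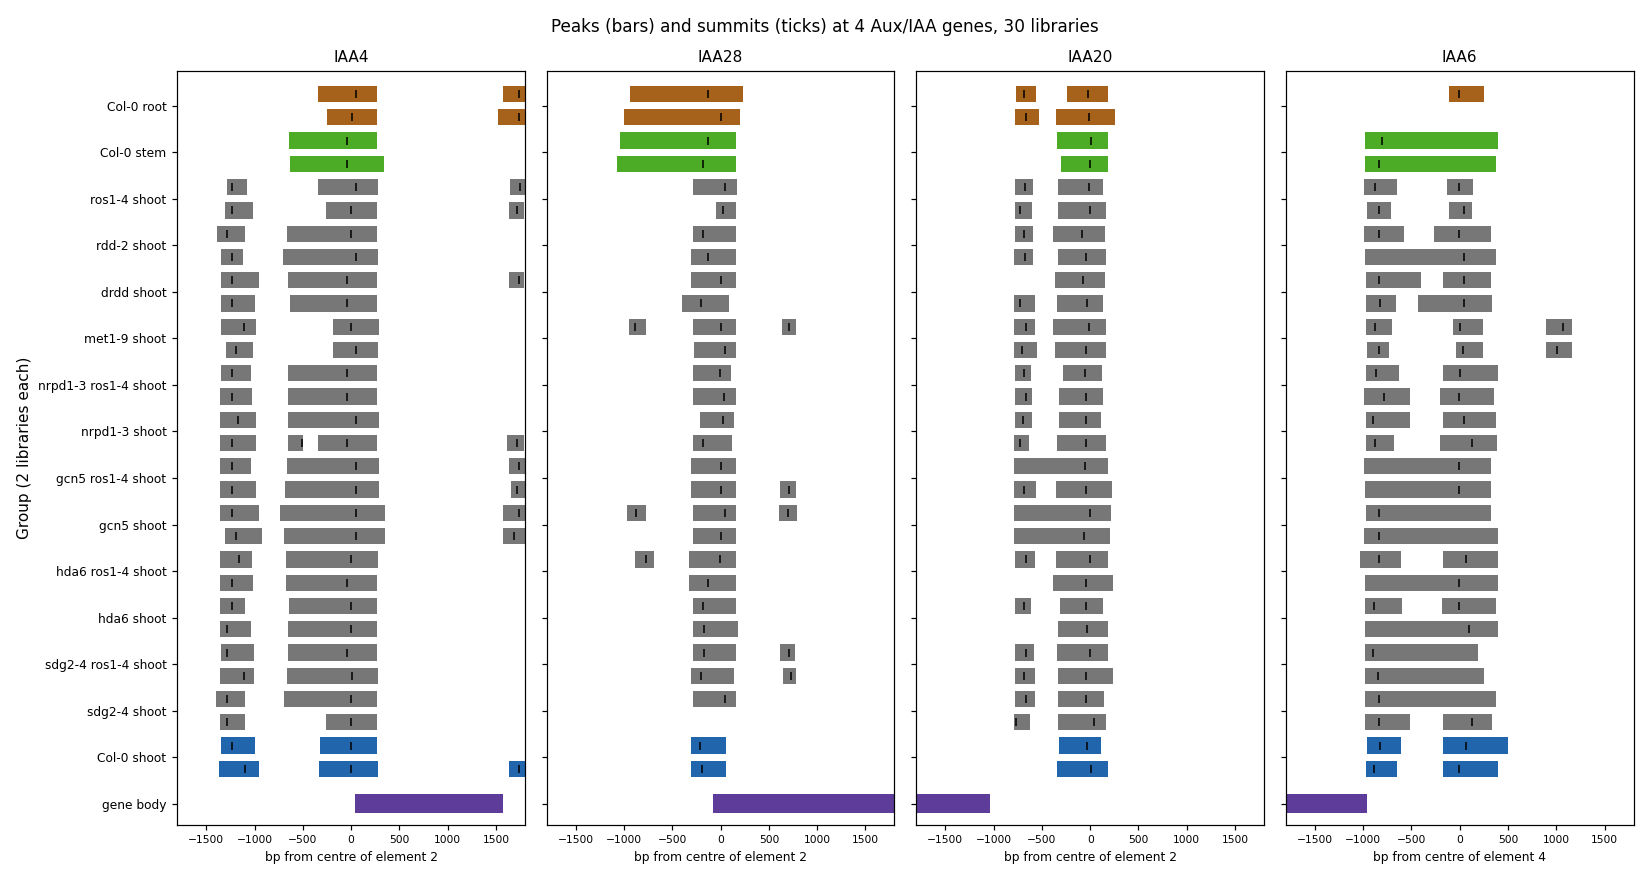
Peaks (bars) and their summits (ticks) in the 30 libraries within 1800 bp of the centre of IAA4 element 2, IAA28 element 2, IAA20 element 2 and IAA6 element 4; the gene body is the purple bar, with root in brown, stem in green, mutant shoots in grey and Col-0 shoot in blue. IAA28 has a wide peak of 1169 to 1241 bp in root and stem only, while IAA4 has a wide peak of 908 to 1082 bp in 20 libraries.

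Across the Col-0 organs, 40 of the 85 elements (47.1%) were carried by both libraries of root, stem and shoot, against 35.8% of all elements. Another 11 (12.9%) were carried by root alone, against 8.33% of all. Stem alone had 1 (1.18%), against 1.37% of all, shoot alone 1 (1.18%), against 2.44% of all, and 11 elements (12.9%) were in no Col-0 library, against 17.8% of all. By role, root against shoot gained 7 of the 66 elements at genes with the full degron and 2 of the 12 at activating ARFs. At genes without the degron or with part of it, 3 of the 7 were gained, where 13.2% of all elements were gained. These 3 were IAA20 element 1 and IAA30 elements 1 and 2, with root folds from 2.53 to 3.61. None of the 3 calls held with lists of equal length or at 2 times the detection limit.

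In the mutants the shares were read against Col-0 shoot. The 2 Col-0 libraries serve all 8 of these comparisons, so an element absent from those can be called gained in several of them. The plot of shares by comparison gives those of the family beside those of all elements. In ros1-4, 1 element was gained, or 1.18% (3.2% of all elements were gained), and 0 were lost (1.61% of all). In rdd-2, 4 were gained, or 4.71% (3.09% of all), and 0 lost (1.12% of all). In drdd, 4 were gained, or 4.71% (3.19% of all), and 0 lost (1.37% of all).

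In met1-9, 6 were gained, or 7.06% (15.1% of all), and 2 lost, or 2.35% (0.699% of all). In nrpd1-3, 6 were gained, or 7.06% (2.91% of all), and 1 lost, or 1.18% (1.45% of all). In gcn5, 12 were gained, or 14.1% (16.7% of all), and 0 lost (0.176% of all). The gcn5 libraries also have the highest background levels, at 25.9 and 32.5 fragments against 6.60 and 8.48 in Col-0 shoot. In hda6, 2 were gained, or 2.35% (3.25% of all), and 2 lost, or 2.35% (1.69% of all). In sdg2-4, 2 were gained, or 2.35% (2.56% of all), and 1 lost, or 1.18% (1.56% of all).

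Leaving out 1 library lets the other stand for its group, so a count can then stay or rise but cannot fall. The number of changed elements in ros1-4 was 5 without ros1-4 replicate 2 or Col-0 shoot replicate 2 and 2 without Col-0 shoot replicate 1, and that in met1-9 was 21 without met1-9 replicate 2. In drdd it was 9 or 7 without drdd replicate 1 or 2, and 8 or 7 without Col-0 shoot replicate 1 or 2. In hda6 it was 8 without either hda6 library and 7 without Col-0 shoot replicate 2, and in nrpd1-3 it was 11 without Col-0 shoot replicate 2. In sdg2-4 it was 6 without either sdg2-4 library or Col-0 shoot replicate 1, and 7 without Col-0 shoot replicate 2. The split into gains and losses also turned with list length. With lists of equal length, nrpd1-3 gained 1 element, or 1.18% (1.95% of all), and lost 4, or 4.71% (1.99% of all). Likewise met1-9 gained 1 (4.63% of all) and lost 7, or 8.24% (4.69% of all). Gains numbered 0 in ros1-4 (1.26% of all), 1 or 1.18% in rdd-2 (1.95% of all), 0 in sdg2-4 (1.74% of all) and 3 or 3.53% in gcn5 (4.86% of all). Losses numbered 2 or 2.35% in ros1-4 (2.39% of all) and 3 or 3.53% in rdd-2 (1.44% of all). They numbered 4 or 4.71% in sdg2-4 (2.34% of all) and 3 or 3.53% in gcn5 (1.54% of all).

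**Figure D4:**
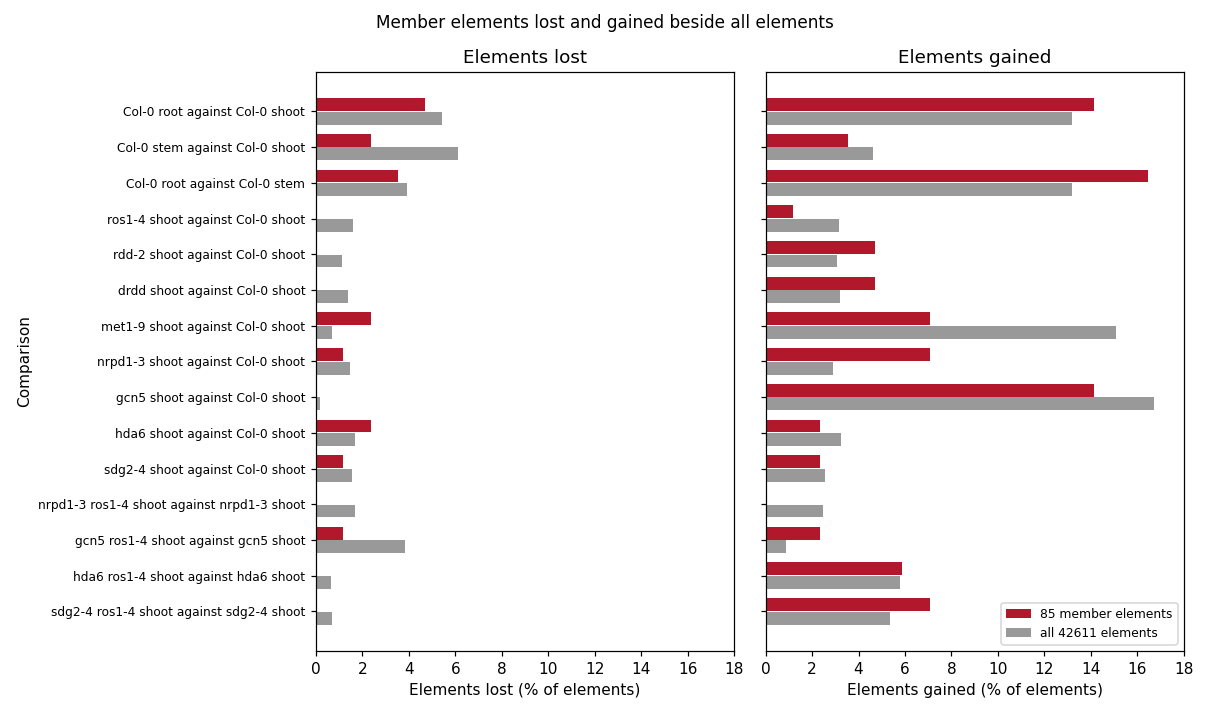
Share of the 85 elements of the family (red) and of all 42611 elements (grey) that were lost (left) or gained (right) in each of the 15 comparisons, with the first-named group set against the second. In root against shoot the gained shares are 14.1% and 13.2%, and in gcn5 against Col-0 shoot they are 14.1% and 16.7%.

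IAA20 element 1 was the element called most often, gained in 6 of the 8 single comparisons. Its ros1-4 folds were 3.99 and 4.41, its rdd-2 folds 3.05 and 3.73, its nrpd1-3 folds 3.29 and 3.42 and its sdg2-4 folds 3.32 and 4.36, and neither Col-0 shoot library listed it. In met1-9 the folds were 7.42 and 5.45, from separate peaks of 226 and 245 bp. In gcn5 a single peak of 1009 and 992 bp ran from element 1 into the constant element 2, with folds of 14.3 and 13.6. It was listed in 23 libraries in all, and stem and Col-0 shoot were the 2 groups in which both libraries lacked it. AT2G46995 is the closer gene at this element. IAA30 element 2 (chromosome 3, 22995442 to 22995742), at the paralogue of IAA20, was gained in 5 comparisons. The rdd-2 folds were 3.169 and 2.97, the drdd folds 3.08 and 2.60, the met1-9 folds 5.93 and 3.35, the nrpd1-3 folds 2.89 and 2.91 and the gcn5 folds 2.97 and 2.26, with no peak in Col-0 shoot. In ros1-4 neither library had it. With lists of equal length, the gains of IAA20 element 1 held in met1-9 and gcn5 only. None of the gains of IAA30 element 2 held at that length.

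IAA4 element 1 was gained in rdd-2, drdd, nrpd1-3, gcn5 and hda6. In 20 libraries of the series it lay inside the peak of element 2, and 1 further library, nrpd1-3 replicate 2, had a separate peak of 155 bp there. The joined peak was 937 and 983 bp long in rdd-2, 930 and 908 bp in drdd, 1082 and 1046 bp in gcn5 and 910 and 929 bp in hda6. In Col-0 shoot the peak at element 2 was 599 and 608 bp long, in ros1-4 it was 618 and 537 bp and in met1-9 it was 476 and 468 bp. Root, with 614 and 523 bp, also had the short form. A wide and a short peak thus both occur among the shoots, and sdg2-4 had 1 of each, 967 and 528 bp long. IAA3 elements 1 and 2 were joined in 16 libraries and IAA6 elements 3 and 4 in 12, both libraries of stem and gcn5 among them in each case.

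At IAA7 (AT3G23050), the AXR2 gene of root gravitropism and hypocotyl growth, element 3 (chromosome 3, 8196101 to 8196401), which lies inside the gene, was gained in rdd-2, drdd, nrpd1-3 and hda6, and in gcn5 ros1-4 against gcn5. Its folds were 2.15 and 2.26 for rdd-2, 2.15 and 2.58 for drdd, 2.11 and 3.201 for nrpd1-3 and 2.99 for hda6 replicate 1, with no peak in any Col-0 library. In hda6 replicate 2 it lay inside a 924 bp peak whose fold of 5.67 is that of the summit at element 4, and the hda6 call was lost with only summits near the element counted. In gcn5 ros1-4 they were 2.63 and 2.92, with no peak in gcn5. None of these 5 calls held with lists of equal length. Those in rdd-2, drdd and nrpd1-3 did not hold with a −log10 q of at least 5 either. Element 4 of the same gene was open in all 30 libraries.

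IAA28 element 4 was lost in nrpd1-3, hda6 and sdg2-4, which had no peak there, against folds of 3.25 and 3.87 in Col-0 shoot. The lowest folds called at background were 2.15 and 2.22 in nrpd1-3, 2.24 and 2.21 in hda6 and 2.09 and 2.42 in sdg2-4. It was gained in hda6 ros1-4, with folds of 3.204 and 3.12, against no peak in hda6, and in sdg2-4 ros1-4, with 3.26 and 2.91, against no peak in sdg2-4. In nrpd1-3 ros1-4 it was listed in replicate 2, with a fold of 3.09. IAA13 element 4 (chromosome 2, 14117012 to 14117312) was lost in met1-9 and hda6, and had folds of 2.33 and 3.73 in Col-0 shoot. It was gained in hda6 ros1-4, with folds of 4.83 and 3.64, against hda6. With lists of equal length the losses of IAA28 element 4 held. The gains of both elements and the losses of IAA13 element 4 did not.

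Other elements were called in 2 genotype comparisons each. IAA12 elements 2 and 3 were gained in met1-9 and gcn5, where element 3 had folds of 4.45 and 3.07 and of 2.75 and 2.30, as they were in root. IAA1 element 1 was gained in drdd, with folds of 2.39 and 2.59, and in gcn5, with 2.52 and 2.18. IAA9 element 3 was gained in nrpd1-3, with 2.71 and 2.75, and in sdg2-4, with 2.63 and 2.75. Elements called once, chosen here after their values were seen, include ARF5 element 1 in met1-9, with folds of 4.42 and 3.096 and no peak in Col-0 shoot, ARF7 element 1 in gcn5, with 3.171 and 2.52, and IAA18 element 1 in nrpd1-3, with 2.77 and 2.75. IAA18 element 1 was listed in both nrpd1-3 ros1-4 libraries, with 3.12 and 2.88, in both nrpd1-3 libraries and in no other. IAA18 element 3 was gained in gcn5 ros1-4 against gcn5, and in sdg2-4 ros1-4 against sdg2-4. Its own peaks had folds of 1.7 in gcn5 ros1-4 replicate 1 and 2.30 in sdg2-4 ros1-4 replicate 2, while the other library of each pair covered it with a wider peak whose summit lay at element 4. Neither call held with only summits near the element counted. IAA26 element 1 was gained in gcn5 against Col-0 shoot, and lost in gcn5 ros1-4 against gcn5. Its own peak in gcn5 replicate 1 had a fold of 1.80. The lowest folds called at background in Col-0 shoot were 2.37 and 2.11. In gcn5 replicate 2 it lay inside a 624 bp peak whose fold of 2.59 is that of the summit at element 2. With lists of equal length, or with only summits near the element counted, neither IAA26 call held. At 2 times the detection limit, the genotype calls were IAA4 element 1 in rdd-2, drdd, nrpd1-3, gcn5 and hda6, and IAA20 element 1 in met1-9 and gcn5, and no others. Of these, IAA20 element 1 in met1-9 alone had a summit of its own in both libraries. The rest passed on the fold of the constant element 2 in at least 1 library, and were not called with only summits near the element counted.

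The ros1-4 double mutants were set against their single mutants to ask what the loss of ROS1 adds. In nrpd1-3 ros1-4, 0 of the 85 elements were gained (2.45% of all) and 0 lost (1.68% of all), and both groups carried 55 of the 64 elements seen in any of the 4 libraries. In gcn5 ros1-4, 2 were gained, or 2.35% (0.878% of all), and 1 lost, or 1.18% (3.83% of all). In hda6 ros1-4, 5 were gained, or 5.88% (5.79% of all), and 0 lost (0.634% of all). In sdg2-4 ros1-4, 6 were gained, or 7.06% (5.37% of all), and 0 lost (0.709% of all). The gains in hda6 ros1-4 and in sdg2-4 ros1-4 lay at IAA7 element 2, IAA9 element 1, IAA27 element 1 and IAA28 element 4 in both. The remaining gains were IAA13 element 4 in hda6 ros1-4, and IAA18 element 3 and IAA28 element 3 in sdg2-4 ros1-4, the last with folds of 3.299 and 3.41.

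IAA7 element 2 had folds of 3.61 and 3.79 in hda6 ros1-4 and 3.77 and 3.27 in sdg2-4 ros1-4, and no peak in hda6 or sdg2-4. IAA27 element 1 (chromosome 4, 14325419 to 14325719) had 3.65 and 3.41 in hda6 ros1-4 and 4.22 and 3.56 in sdg2-4 ros1-4, and no peak in either single mutant. IAA9 element 1 had 3.39 and 3.00 in hda6 ros1-4 and 3.72 and 2.99 in sdg2-4 ros1-4, likewise with none. The background level moves with these gains in part. It was 9.12 and 12.9 fragments in hda6 ros1-4 and 7.03 and 6.68 in hda6. In sdg2-4 ros1-4 it was 8.06 and 7.42, and in sdg2-4 it was 9.03 and 5.19. Its part in the result was not tested. With lists of equal length there were 1 loss and 1 gain in hda6 ros1-4 and 1 gain in sdg2-4 ros1-4. All were new calls, so none of the gains named for hda6 ros1-4 and sdg2-4 ros1-4 held. Without hda6 replicate 1 there were 13 changed elements in hda6 ros1-4, and without hda6 ros1-4 replicate 2 there were 8. Without sdg2-4 replicate 1 there were 12 in sdg2-4 ros1-4. Changed elements numbered 6 or 5 in gcn5 ros1-4 without gcn5 replicate 1 or 2, and 5 or 8 without gcn5 ros1-4 replicate 1 or 2. In nrpd1-3 ros1-4 they numbered from 1 to 3 when any 1 of the 4 libraries was left out.

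Other genes of the pathway were counted in the same way, by gene, where 21.2% of protein-coding genes with an element gained one in root against shoot and 9.49% lost one. Of 10 measured auxin synthesis genes 5 gained an element in root, with YUC8, YUC5, TAR2 and YUC2 the highest in fold, and TAR2 and YUC6 lost one. These encode enzymes that make auxin from tryptophan. Of 6 receptor genes 0 gained and 1, TIR1, lost an element, at Col-0 shoot folds of 3.298 and 3.298. Among 10 other ARF genes, most of them repressors, ARF3 and ARF16 gained and ARF11 lost one. ARF3 had folds of 4.55 and 4.66 at its element in root. The 5 TOPLESS family corepressor genes gained 0 and lost 0. Of 6 measured GH3 genes, whose enzymes join auxin to amino acids, GH3.17 gained an element, and of 3 LBD genes, targets of ARF7 and ARF19, LBD29 did.

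In stem against shoot, 7.69% of protein-coding genes with an element gained and 12% lost one. AFB3 gained an element, ARF2, ARF10 and ARF11 lost one, and the synthesis, corepressor, GH3 and LBD lists had neither. In root against stem, where 23.1% of such genes gained and 6.67% lost one, ARF10, ARF2, GH3.6, GH3.17 and LBD29 were among the gains and AFB3 among the losses. In gcn5 against Col-0 shoot, 33.1% of such genes gained and 0.29% lost an element. Of the lists, 5 of 10 other ARF genes gained one, with 4 of 10 synthesis genes, 2 of 6 receptors and 2 of 5 corepressors. Gains numbered 0 of 6 GH3 genes and 0 of 3 LBD genes.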

How the data were processed

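The members and the pathway lists were chosen with earlier results of these data known. Per the submitters' processing notes, reads were handled with FastQC, BWA, SAMtools and GATK on TAIR10 and peaks called with MACS2, with versions not given in the sources used here. The 30 narrowPeak lists were deposited with a score, a fold (ratio) over background, and −log10 p and −log10 q values as the authors' caller wrote them. Start, end and summit are the authors' deposited coordinates. Libraries were grouped by the labels' tissue and genotype, and each library has a list of its own.

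All summits gave 48484 windows of 301 bp, ranked by −log10 q within each list, of which 42611 were carried by both libraries of at least 1 group and are the elements used. An overlap of 1 bp counted as present. Member genes were matched by locus (34 of 34) in a RefSeq table of assembly TAIR10.1, which gave gene names and overlaps. Elements were checked against it in 62 bins of 2 Mb, and in 61 of them the share outside genes was highest within 200 bp of no shift. Counts of fragments behind a peak and the background level were computed by inverting the Poisson model of the caller, and 100% of the recovered pileups were within 0.05 of a whole number. Depth itself is unknown, so no interval is given.

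Elements named in full are those lost or gained in an organ comparison, called in 2 or more genotype comparisons or at 2 times the detection limit, and the extremes of the constant ones. Other genes are named from their list. The calling steps were run on simulated lists with separate sites and the same cutoff in every list. That run does not cover joined peaks or unequal background levels. Alternatives were equal list lengths (17315 peaks), a −log10 q of at least 5, the detection limit, a 50% overlap, 2000 bp flanks, leaving out each library, and summits within 300 bp of the element centre, added after the data were seen. Python 3.11.15, numpy 2.4.6, pandas 2.3.3 and SciPy 1.17.1 were used.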

Additional observations from a re-analysis of the deposited data

How the results depend on the processing

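Counts of changed elements depend on list length, and folds near 2 are at the detection limit of the lists with a low background level. With lists of equal length, gains in root against shoot numbered 7, and root against stem gave 6 losses and 5 gains. Changed elements then numbered 2 in ros1-4, 6 in gcn5, 5 in nrpd1-3 ros1-4, 0 in gcn5 ros1-4, 2 in hda6 ros1-4 and 1 in sdg2-4 ros1-4. Losses outnumbered gains in ros1-4, rdd-2, met1-9, nrpd1-3 and sdg2-4. Over all elements they did so too in ros1-4 (1018 against 535), met1-9 (1997 against 1975), nrpd1-3 (847 against 831) and sdg2-4 (996 against 743). In rdd-2 all elements had 615 losses against 830 gains. With −log10 q of at least 5, root against stem gave 5 losses, ros1-4 gave 2 changed elements and nrpd1-3 ros1-4 gave 1. At 2 times the detection limit, root against shoot gave 2 losses and 1 gain, stem against shoot 0 losses, and root against stem 2 gains. Changed elements at that limit numbered 0 in ros1-4, sdg2-4, gcn5 ros1-4, hda6 ros1-4 and sdg2-4 ros1-4, 1 in rdd-2, drdd, met1-9, nrpd1-3 and hda6, and 2 in gcn5.

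With a peak covering 50% of the element, nrpd1-3 ros1-4 gave 1 and sdg2-4 ros1-4 gave 2 changed elements. With flanks of 2000 bp, which add elements, root against shoot gave 8 losses, stem against shoot 8 gains and root against stem 7 losses, and changed elements numbered 3 in ros1-4, 7 in rdd-2, 7 in drdd, 20 in gcn5, 5 in sdg2-4, 1 in nrpd1-3 ros1-4 and 6 in gcn5 ros1-4. With summits within 300 bp, chosen after seeing the data, stem against shoot gave 8 losses and 1 gain, hda6 gave 2 and nrpd1-3 ros1-4 gave 5 changed elements, and 18 elements were in all 30 libraries. The cause was not tested, other than that a shorter list, a higher limit and a wider flank change what can be called.

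Leaving out 1 library, which lets the other stand for its group, gave from 12 to 16 gains and 4 to 5 losses in root against shoot, 3 to 6 gains and 2 to 5 losses in stem against shoot, and 14 to 18 gains and 3 to 7 losses in root against stem. Changed elements ran from 1 to 5 in ros1-4, 5 to 6 in rdd-2, 7 to 9 in drdd, 10 to 21 in met1-9, 8 to 11 in nrpd1-3, 12 to 18 in gcn5, 6 to 8 in hda6, 6 to 7 in sdg2-4, 1 to 3 in nrpd1-3 ros1-4, 5 to 8 in gcn5 ros1-4, 6 to 13 in hda6 ros1-4 and 7 to 12 in sdg2-4 ros1-4. Elements in all remaining libraries ran from 31 to 34, and members with a peak in all from 21 to 23. The detection limit gives no value for these last 2 counts, nor the 50% overlap for the count of members. No paired analysis was possible because the calls come from no test, and nothing in the labels links same-numbered libraries.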
